A study of Mus musculus with 3 samples.

Results

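The genes of cholesterol synthesis, uptake and efflux were 33 of the 55536 annotated genes. They were chosen by symbol from what they are known to do and not by their values, though with earlier results of these data known. They comprised 17 synthesis enzymes, 5 genes of sterol sensing by SREBP, 2 LXR receptor genes, 3 efflux genes, 1 gene that limits lipoprotein uptake, 2 genes of oxysterol and sterol ester formation and 3 genes of sterol transfer. They were followed in polyadenylated RNA of macrophages that had been differentiated in culture from C57BL/6J mouse bone marrow. The cells had been given 100 ng/ml lipid A for 12 h, washed out for 12 h and given 100 ng/ml lipid A again for 480 min. Lipid A is the membrane anchor of bacterial lipopolysaccharide and the ligand of the receptor TLR4. The free-text label names lipid A, while the treatment field names lipoprotein A, and the free text is followed here. The 3 libraries, prepared from 1 µg of RNA each and numbered as biological replicates 1, 2 and 3, formed 1 group. No untreated or once-treated sample was analysed here, so every comparison is between genes within a library or between the replicates. All libraries carry the same donor record, so the spread between them may be technical. In bulk RNA, fewer cells of a type and less RNA per cell cannot be told apart.

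Macrophages take up cholesterol with lipoproteins and engulfed cells, and they also make it from acetyl-CoA through mevalonate and squalene. When sterol in the endoplasmic reticulum is low, SCAP carries SREBP proteins to the Golgi, where they are cut and released to switch on the enzymes of synthesis, whereas INSIG proteins hold them back when sterol is plentiful. Oxysterols and the sterol intermediate desmosterol activate the LXR receptors, which bind DNA with RXR and switch on export through ABCA1, ABCG1 and APOE.

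Promoters are shown for 4 of the genes because they hold the letters of binding sites named below. A RefSeq window of 250 bases before to 50 bases after a transcription start (GRCm38.p6, the mm10 build) was matched for 27 of the 33 genes, all but Fdps, Fdft1, Sqle, Abcg1, Npc1 and Stard4. The window nearest the leading transcript of each gene was searched on both strands and used for the counts, and windows of further starts were searched but not counted. The letters searched were TCACNCCAC, a form of the sterol regulatory element bound by SREBP, CCAAT, the box bound by NF-Y, GGGCGG, the box bound by Sp1, and GGTNA followed after 5 free bases by a second GGTNA, a direct repeat of the kind bound by LXR with RXR. In the counted windows no match of one motif overlapped a match of another. The 250 bases before the start are printed for Hmgcs1 (chr13:119690101-119690350, plus strand), with the sterol regulatory element and CCAAT boxes in capitals, and for Mvk (chr5:114444019-114444268, plus strand), with CCAAT boxes in capitals. They are printed for Abca1 (chr4:53159896-53160145, minus strand) and for the most downstream of the RefSeq starts of Srebf1 (chr11:60210472-60210721, minus strand) with the direct repeat in capitals. A box in capitals that reads ATTGG, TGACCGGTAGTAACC or TGACCGCCAGTAACC is the motif on the opposite strand.
Hmgcs1: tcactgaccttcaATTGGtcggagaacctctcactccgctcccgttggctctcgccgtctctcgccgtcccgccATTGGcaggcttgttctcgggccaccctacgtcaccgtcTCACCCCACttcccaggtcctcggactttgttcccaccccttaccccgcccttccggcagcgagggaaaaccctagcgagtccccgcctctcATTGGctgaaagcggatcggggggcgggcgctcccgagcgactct
Mvk: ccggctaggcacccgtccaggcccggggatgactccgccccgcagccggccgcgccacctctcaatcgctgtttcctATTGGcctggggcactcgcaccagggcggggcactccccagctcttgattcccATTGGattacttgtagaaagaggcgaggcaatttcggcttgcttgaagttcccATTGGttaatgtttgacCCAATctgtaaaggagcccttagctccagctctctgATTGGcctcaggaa
Abca1: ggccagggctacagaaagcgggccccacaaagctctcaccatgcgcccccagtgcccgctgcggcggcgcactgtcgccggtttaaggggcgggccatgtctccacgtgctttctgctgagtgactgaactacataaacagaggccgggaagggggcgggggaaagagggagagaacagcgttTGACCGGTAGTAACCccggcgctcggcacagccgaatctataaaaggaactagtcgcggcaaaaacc
Srebf1: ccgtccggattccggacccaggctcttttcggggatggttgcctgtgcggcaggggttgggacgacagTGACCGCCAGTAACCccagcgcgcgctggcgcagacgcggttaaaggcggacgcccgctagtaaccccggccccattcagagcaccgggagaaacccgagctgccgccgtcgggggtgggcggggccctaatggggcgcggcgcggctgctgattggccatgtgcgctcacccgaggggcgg

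CCAAT stood in the window of 13 of the 14 synthesis enzymes that had one, which is 92.9%, against 38.2% of the 21263 windows of protein-coding genes. Mvk held 5 of these boxes and Hmgcs1 held 4, of which the one after the start is not printed. GGGCGG stood in 13 of the 14 enzyme windows too, against 46.2% of protein-coding windows. Of the 13 other cholesterol genes with a window, CCAAT stood in 5 and GGGCGG in 9. The sterol regulatory element as spelled here stood only in Hmgcs1 among the 27 genes, 137 bases before the start, and in 1.19% of protein-coding windows. The direct repeat stood in 1 of the 27 nearest windows, that of Abca1, 67 bases before the start, against 0.630% of protein-coding windows. For Srebf1 it stood in the downstream window, 182 bases before that start, and not in the window nearest the leading transcript, so this match is outside the count. Such matches describe the letters in these windows and do not show that a factor was bound.

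The libraries held 24596382, 54016971 and 43127749 expected counts in replicates 1, 2 and 3. Replicate 2 stood apart: mitochondrial messages took 6.86% of its counts, against 1.06% and 1.13% in replicates 1 and 3, and its ranking of detected genes correlated less with the others (Spearman's rho 0.92 with each, against 0.98 between replicates 1 and 3, over 10350 genes). All 6 macrophage markers were at 1 TPM (a level corrected for transcript length and library size) or more in every library, with summed levels of 8498, 9847 and 8286 TPM. Of 29 markers in 8 lists of other cell types, 1 reached 1 TPM in every library and 8 were at 0 throughout. The exception, the osteoclast marker Acp5, is also a macrophage gene and was chosen for mention after its values were seen.

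Cholesterol genes were expressed broadly in these macrophages. At 1 TPM or more in every library stood 32 of the 33, against 42.9% of the 22028 protein-coding genes and 91.2% of the 10350 detected ones, those that reached 1 TPM in any library, the exception being the oxysterol enzyme Ch25h. At 10 TPM or more stood 23 of the 33 (24.1% of protein-coding and 51.2% of detected genes), and at 100 TPM or more stood Nr1h3, Apoe, Soat1 and Npc2 (4.04% of protein-coding and 8.60% of detected genes). The median of the members' mean levels was 25.4 TPM, against 15.1 TPM for the detected protein-coding genes.

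**Figure D1:**
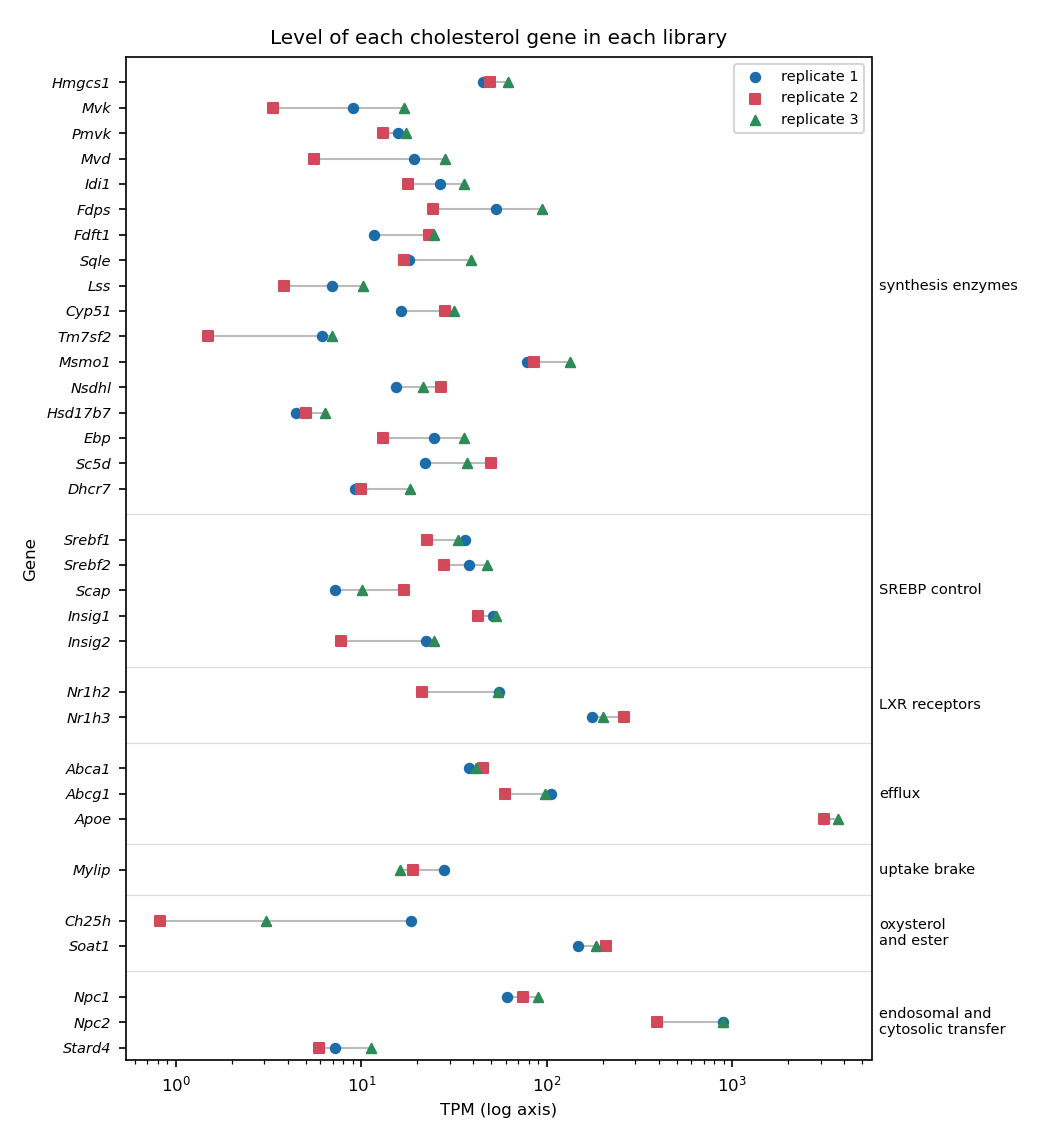
Level of each of the 33 genes in TPM on a log axis, with 1 point per library and a grey line over the range, grouped by role. The 17 synthesis enzymes lie between 1.49 and 134 TPM, and Apoe lies at 3118 TPM or more in each library.

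The first enzymes of the pathway make the isoprenoid building blocks. Hmgcs1 (chr13:119690379-119708260), which condenses acetyl units to HMG-CoA, had 45.2, 49.3 and 61.7 TPM in replicates 1, 2 and 3, a mean of 52.1 ± 8.60 TPM (SD, n = 3). Its 3 libraries lay close together there. In a second deposited quantification of the same libraries they lay further apart, at 31.0, 52.6 and 57.7 TPM. The kinase Mvk, which phosphorylates mevalonate, had 8.97, 3.33 and 16.96 TPM. Its successor Pmvk, which adds the next phosphate, had 15.7, 13.0 and 17.3 TPM. Mvd, which then makes isopentenyl diphosphate, had 19.2, 5.55 and 28.2 TPM. Mvk and Mvd were lowest in replicate 2 by a wide margin, whereas the summed TPM of Pmvk between them hardly varied. The short transcript Pmvk-202, of 652 bases, carried 2.93%, 50.2% and 0% of that TPM in replicates 1, 2 and 3. The longer Pmvk-201, of 1194 bases, was itself lowest in replicate 2, so the steady level of Pmvk rests in part on the short transcript. Idi1, which isomerises isopentenyl diphosphate, had 26.6, 17.9 and 35.7 TPM. Fdps, which builds farnesyl diphosphate, the last precursor shared with protein prenylation, had 52.9, 24.2 and 94.3 TPM, a mean of 57.2 ± 35.2 TPM. Both were low in replicate 2 and high in replicate 3.

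The committed sterol steps start at squalene synthase, Fdft1, which had 11.7, 23.1 and 24.6 TPM. Fdft1 shares 774 exon bases, 18.3% of its own, with the cathepsin gene Ctsb on the opposite strand, which stood at 7098, 3139.9 and 7905 TPM. Strandedness of the libraries was not given in the sources used here, so reads of the 2 genes may not be told apart there, and the level of Fdft1 is uncertain for that reason. Ctsb was named for this overlap after its values were seen. Sqle, which epoxidises squalene and is a known slow step, had 17.97, 16.99 and 39.1 TPM. Lss, which closes the ring to lanosterol, had 6.92, 3.84 and 10.2 TPM. Sqle was above Lss in every library, by 1.80 ± 0.39 on the log2 scale (SD, n = 3). Cyp51, the lanosterol demethylase, had 16.3, 28.3 and 31.6 TPM.

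Among the enzymes that turn lanosterol into cholesterol, the methylsterol oxidase Msmo1 was the most abundant. Msmo1 (chr8:64718139-64733792) had 78.2, 85.7 and 134 TPM, a mean of 99.3 ± 30.2 TPM, and ranked first of the 17 enzymes in each library. Its partners in demethylation were lower, Nsdhl at 15.4, 26.7 and 21.5 TPM. Hsd17b7, the ketosterol reductase of the same complex, had 4.43, 5.02 and 6.39 TPM. The ranges of these 3 genes, which serve 1 series of reactions, did not overlap. Tm7sf2, a sterol reductase whose reaction the lamin B receptor can also perform, had 6.15, 1.49 and 6.95 TPM, and it shares 532 exon bases with Vps51 on the same strand. Vps51, named for this overlap after its values were seen, had 39.0, 11.7 and 37.9 TPM and was low in the same library, so the level of Tm7sf2 is uncertain. Ebp, the sterol isomerase, had 24.5, 13.1 and 35.9 TPM. Sc5d, the desaturase, had 21.9, 49.9 and 36.9 TPM, whereas Dhcr7, the reductase that follows it, had 9.25, 9.98 and 18.3 TPM. The short transcript Sc5d-203, of 703 bases, carried 0%, 25.9% and 1.00% of the TPM of Sc5d in replicates 1, 2 and 3. Dhcr7 stood below Sc5d in every library, by a log2 ratio of -1.52 ± 0.70, which did not exceed 3 SD. Without replicate 2 the ratio was -1.12 and did, with the SD taken over replicates 1 and 3 alone.

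The order of the enzymes was kept in part between libraries. In each library Msmo1 had rank 1, Hmgcs1 rank 3 and Lss rank 15 of the 17, while Sc5d ranked 6, 2 and 5 and Fdps ranked 2, 6 and 2 in replicates 1, 2 and 3. Spearman's rho across the 17 enzymes was 0.94 between replicates 1 and 3, 0.74 between replicates 1 and 2 and 0.80 between replicates 2 and 3.

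The mean levels of the 5 sensing genes ran from 11.5 to 48.8 TPM, and those of the 17 enzymes from 4.86 to 99.3 TPM. Srebf2 (chr15:82147181-82205379), which encodes the SREBP that mainly drives the sterol enzymes, had 38.2, 27.9 and 47.8 TPM. Srebf1 (chr11:60199089-60222581), whose products mainly drive fatty acid genes, had 36.0, 22.7 and 33.1 TPM. The log2 ratio of Srebf2 to Srebf1 was 0.30 ± 0.22, so their levels did not separate beyond the spread between replicates. Scap, which encodes the escort of SREBP, had 7.25, 17.02 and 10.1 TPM. Insig1, itself a known SREBP target, had 51.2, 42.3 and 53.0 TPM. Insig2, the form not induced by SREBP, had 22.4, 7.72 and 24.6 TPM. Insig1 was above Insig2 in every library, by 2.28, 5.42 and 2.15 times on TPM + 0.1, with replicate 2 apart. Their log2 ratio was 1.58 ± 0.75 with that replicate and 1.15 without it, where it exceeded 3 SD of replicates 1 and 3 alone. The low TPM of Insig2 in replicate 2 went with its transcripts: the full-length Insig2-201 carried 50.6%, 98.3% and 56.4% of the gene's TPM, and short transcripts of 478 and 471 bases carried 43.3% in replicate 1 and 36.5% in replicate 3. Deviations of a library from a gene's 3-library mean are given on the log2 scale after subtracting the median deviation of detected genes in that library. By counts scaled to library size, which do not divide by transcript length, Insig2 deviated by -0.27 in replicate 2, and by TPM it deviated by -0.79.

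The shares of transcripts behind these levels differed between libraries for Srebf1, Srebf2, Scap and Insig2, whereas Insig1-201 carried 96.7%, 97.99% and 98.5% of the TPM of Insig1. Srebf1 is known to be transcribed from separate promoters, the downstream one being the LXR-responsive one. Srebf1-201, the protein-coding transcript with the upstream start, carried 56.99%, 10.5% and 48.97% of the gene's TPM in replicates 1, 2 and 3. Srebf1-207, the protein-coding transcript that starts beside the downstream window printed above, carried 15.4%, 3.65% and 20.1%. In replicates 1 and 3 the upstream start thus had the larger share, while in replicate 2 the non-coding Srebf1-210 had 52.8%. By TPM, Srebf1 in replicate 2 deviated by -0.19 after the same subtraction, whereas by counts scaled to library size it deviated by -1.07. Scap in replicate 2, after that subtraction, deviated by 0.81 by TPM and by -0.27 by counts, and the retained-intron transcript Scap-202, of 358 bases, carried 75.6% of its TPM there and 0% in each of the others.

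**Figure D2:**
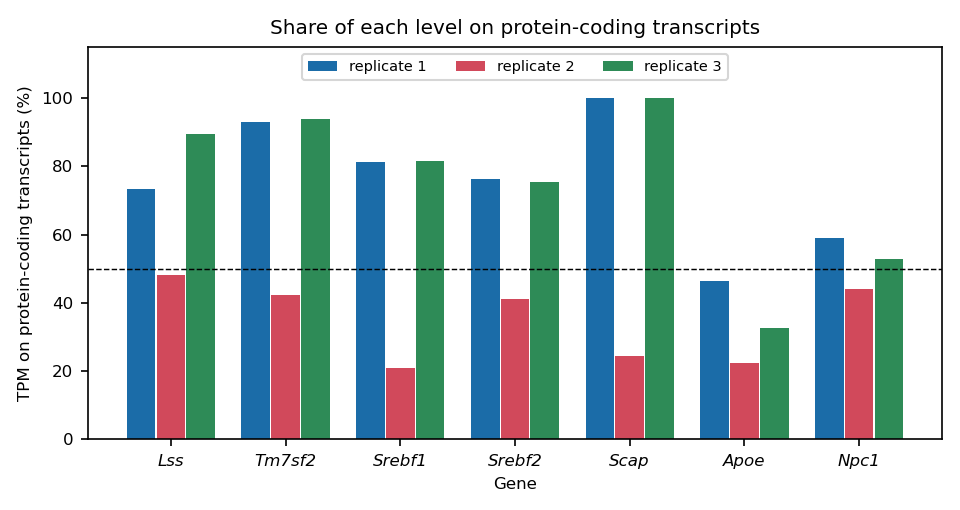
Percent of each gene's TPM that was assigned to protein-coding transcripts, with 1 bar per library, for the 7 cholesterol genes below 50% in at least 1 library (dashed line). All 7 are below the line in replicate 2, and Apoe is below it in each library.

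Less than 50% of the TPM lay on protein-coding transcripts for 7 of the 33 genes in replicate 2, and for 1 in each of replicates 1 and 3. Of detected protein-coding genes, 12.2% fell below that share in replicate 2, 6.87% in replicate 1 and 6.71% in replicate 3. The 7 genes were Lss, Tm7sf2, Srebf1, Srebf2, Scap, Apoe and Npc1. For Srebf2 the retained-intron transcript Srebf2-205 carried 23.0%, 55.4% and 24.2%. For Apoe the leading transcript was Apoe-202, annotated as a processed transcript without a coding sequence, with 53.4%, 77.5% and 67.2%. For Npc1 the retained-intron transcript Npc1-206 carried 40.5%, 55.9% and 45.5%. Sharing reads among overlapping transcripts is a model estimate, and the leading transcript was the same in both deposited quantifications for 32 of the 33 genes, all but Srebf1.

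The LXR receptors and the export genes stood higher than most enzymes. Nr1h3 (chr2:91184061-91202834), which encodes LXR alpha, had 176, 262 and 201 TPM, a mean of 213 ± 44.3 TPM. Nr1h2, which encodes LXR beta, had 55.1, 21.2 and 54.6 TPM. Nr1h3 was thus the higher receptor gene in every library, the log2 ratio of Nr1h2 to Nr1h3 being -2.39 ± 1.07, within 3 SD. Without replicate 2 it was -1.78 and exceeded 3 SD of replicates 1 and 3 alone.

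Apoe (chr7:19696109-19699188), which encodes the secreted acceptor and carrier of lipid, was the most abundant of the 33 genes, with 3118, 3125 and 3691 TPM and a mean of 3311 ± 329 TPM. Its level put it above 99.9% of protein-coding genes. Abcg1, the transporter that loads formed particles, had 105, 59.3 and 98.2 TPM. Abca1 (chr4:53030787-53159895), the transporter that loads lipid-poor apolipoprotein, had 38.2, 45.2 and 41.7 TPM, a coefficient of variation of 8.32%. In the second quantification its libraries lay further apart, at 25.8, 45.6 and 36.5 TPM. Apoe was above Abca1 by 6.31 ± 0.18 on the log2 scale. On protein-coding transcripts alone, an alternative chosen after seeing the data, the mean log2 ratio was 4.69. Abca1 was below Abcg1 in every library, by a log2 ratio of -1.03 ± 0.56 that lay within 3 SD. Without replicate 2 the ratio was -1.35, beyond 3 SD of replicates 1 and 3 alone. Mylip, an LXR target known to degrade lipoprotein receptors, had 27.9, 19.0 and 16.1 TPM.

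The synthesis enzymes were lower than the efflux genes within each library. The median level of the 17 enzymes was 16.3, 16.99 and 28.2 TPM in replicates 1, 2 and 3, against 105, 59.3 and 98.2 TPM for Abca1, Abcg1 and Apoe, whose median was Abcg1 each time. On the scale of log2(TPM + 1) the enzyme median minus the efflux median was -2.62, -1.74 and -1.77, a mean of -2.04 ± 0.50 (SD, n = 3) and of -2.19 without replicate 2. It had the same sign in 3 of 3 libraries, and an exact two-sided sign-flip test over 3 libraries cannot give a p below 0.25. Taking the mean of the log2 values in place of the median gave -3.53, since Apoe then counts in full.

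The 3 efflux genes did not stand alike against the enzymes. All 17 enzymes were below Apoe in every library, 16 were below Abcg1 and 13 were below Abca1. Hmgcs1 stood slightly above Abca1, at a log2 ratio of 0.31 ± 0.23, within 3 SD. The summed level of the 17 enzymes, 381, 377 and 619.5 TPM, was below the level of Apoe alone.

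**Figure D3:**
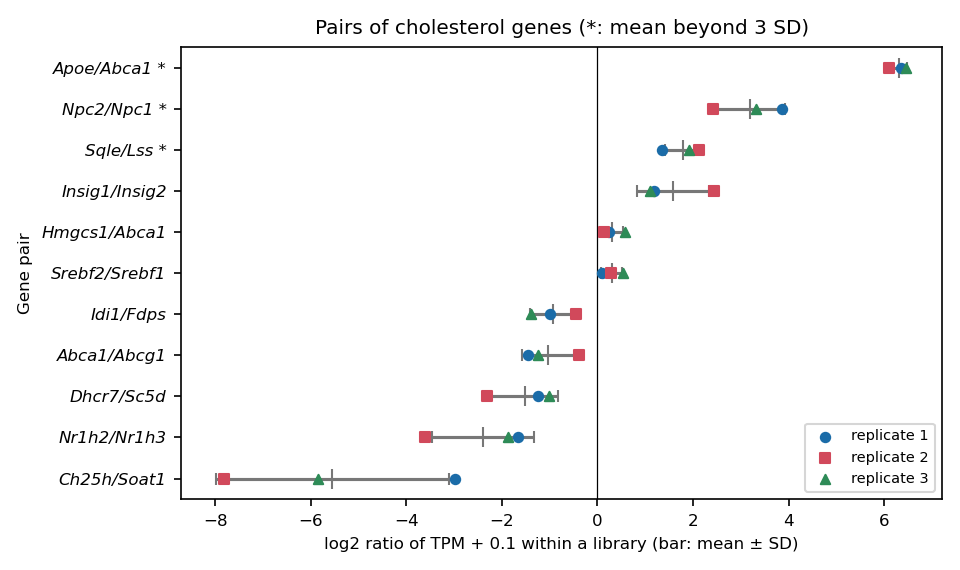
log2 ratio of TPM + 0.1 between the genes of each of the 11 pairs, with 1 point per library and a bar for mean ± SD. Every pair keeps 1 sign in the 3 libraries, and the 3 pairs with an asterisk have a mean beyond 3 SD.

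Cholesterol that enters through endosomes is moved on by NPC2, which takes it from the lumen, and NPC1, which passes it through the membrane. Npc2 had 886, 393 and 886 TPM and Npc1 had 61.0, 74.0 and 89.4 TPM. Npc2 exceeded Npc1 by 3.19 ± 0.73 on the log2 scale, and 5.30 times in replicate 2 where it was smallest. Stard4, which encodes a cytosolic sterol carrier and is a known SREBP target, had 7.23, 5.90 and 11.2 TPM. Soat1, which esterifies cholesterol for storage, had 148, 209 and 183 TPM, above all 17 enzymes in every library.

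Ch25h (chr19:34473778-34475164), the enzyme that makes an oxysterol which restrains SREBP and activates LXR, varied most. Its levels were 18.6, 0.820 and 3.06 TPM, from 358, 40 and 106 counts. Replicate 1 was 22.7 times replicate 2. Ch25h was below Soat1 in every library, by a log2 ratio of -5.55 ± 2.44, which lay within 3 SD. Without replicate 1 the ratio was -6.84 and exceeded 3 SD of replicates 2 and 3 alone.

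Of the 11 pairs, 3 had a mean log2 ratio beyond 3 SD, namely Npc2 over Npc1, Sqle over Lss and Apoe over Abca1. Without replicate 2 the number was 8, but the SD is then that of replicates 1 and 3 alone. The 2 numbers thus do not rest on the same SD. All 11 pairs kept 1 sign in the 3 libraries.

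In edgeR's quasi-likelihood fit on expected counts, 0 of 11932 genes varied more between libraries than genes of like abundance at a Benjamini-Hochberg adjusted p under 0.05, a background of 0%. The 33 cholesterol genes were all tested and 0 were called. At an unadjusted p under 0.05 were 503 genes, 4.22% of those tested, and 2 of the 33, namely Ch25h and Srebf1. Both had an edgeR adjusted p of 0.933. With scaling by relative log expression 0 genes were called as well, and 507 had an unadjusted p under 0.05. On simulated counts the test found 24 of 100 genes changed 8-fold in 1 library and 90 of 100 changed 32-fold, so a smaller shift of 1 library could go unseen.

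The synthesis enzymes tended to be high in replicate 3. After subtracting the median deviation of detected genes in each library, none of the 17 was lowest there, against 29.1% of detected protein-coding genes. On that scale 11 were highest there, against 31.1%. By TPM without that subtraction, all but Nsdhl and Sc5d were highest there. With replicate 2 set aside, all 17 were higher in replicate 3 than in replicate 1, against 52.0% of detected genes. After the subtraction, replicate 1 was lowest for 9 of the 17 (28.7% of detected genes) and replicate 2 for 8 (42.2%). No enzyme was lowest in replicate 3 under any of the 4 other scalings either, those being TPM of nuclear genes, counts scaled to library size, the second quantification and protein-coding transcripts alone. By TPM without the subtraction, the change between highest and lowest library was 2-fold or more for 9 of the 17 enzymes and 14 of the 33 genes. The share among detected genes was 39.9%.

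**Figure D4:**
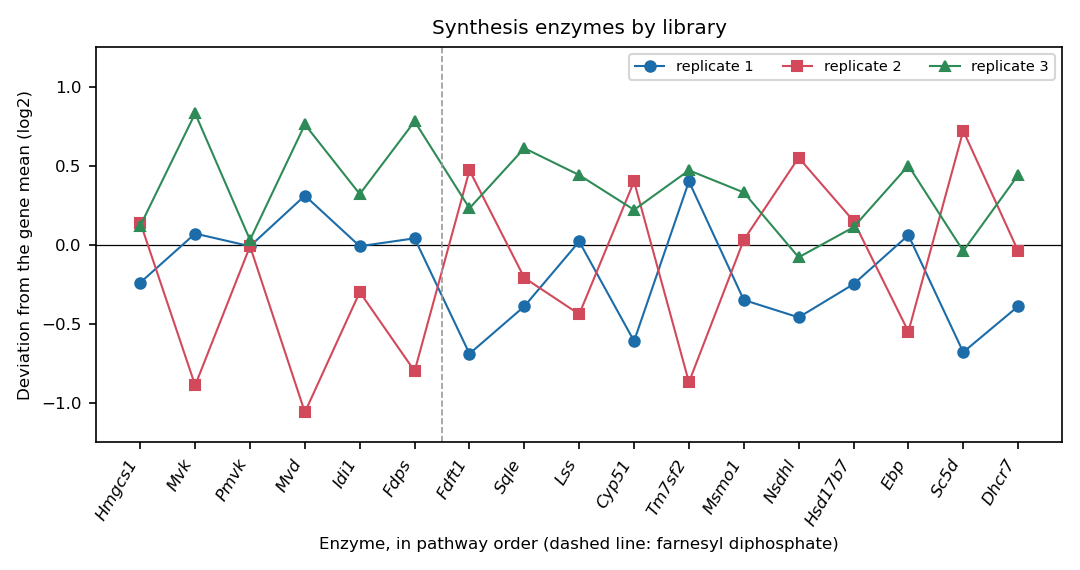
Deviation of each synthesis enzyme from its 3-library mean, in log2(TPM + 1) after subtracting the median deviation of detected genes, with 1 line per library and enzymes in pathway order. Replicate 2 dips at Mvk, Mvd, Fdps and Tm7sf2 and peaks at Sc5d, and replicate 3 stays above -0.10 throughout.

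After subtracting the shift of all detected genes (0.05, -0.20 and 0.14 in replicates 1, 2 and 3 on the log2 scale), the median deviation of the 17 enzymes from their 3-library means was -0.24, -0.04 and 0.33. By their medians, the 2 parts of the pathway differed in which library was low. The 6 enzymes up to farnesyl diphosphate had medians of 0.02, -0.55 and 0.54, and replicate 2 was lowest for 5 of them and replicate 1 for 1. The 11 from squalene synthase on had medians of -0.39, 0.03 and 0.33, and replicate 1 was lowest for 8 of them and replicate 2 for 3. For the 3 efflux genes the medians were -0.13, 0.12 and 0.02, which became 0.23, -0.27 and 0.01 on protein-coding transcripts alone, so no library can be called low for them.

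The GC content of the messages moved with these deviations. Across the 17 enzymes the GC content of the leading transcript and the deviation in replicate 2 had a Pearson correlation of -0.68, across all 33 genes of -0.28 and across 10339 detected genes of -0.39. By counts scaled to library size these correlations were -0.71, -0.49 and -0.47. Genes share the library and are not independent, so these describe the points only. Mvk, Mvd and Tm7sf2, at 59.6%, 59.3% and 56.4% GC, had the lowest deviations of the 17 in replicate 2 (-0.89, -1.06 and -0.87), with the overlap of Tm7sf2 with Vps51 as given above. Sc5d, Nsdhl and Fdft1, at 45.4%, 45.8% and 50.1% GC, had the highest (0.72, 0.55 and 0.47). The overlap of Fdft1 with Ctsb and the short transcript Sc5d-203 in replicate 2, both given above, apply here too. By counts scaled to library size Sc5d, Nsdhl and Fdft1 deviated by 0.43, 0.63 and 0.52, and Cyp51, at 0.49, stood above Sc5d. Pmvk, at 56.95% GC, deviated by -0.01 by TPM and by -0.19 by counts scaled to library size. The share of the short transcript Pmvk-202 in replicate 2, given above, applies to its value by TPM. The part of GC content in the levels of replicate 2 was not tested.

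**Figure D5:**
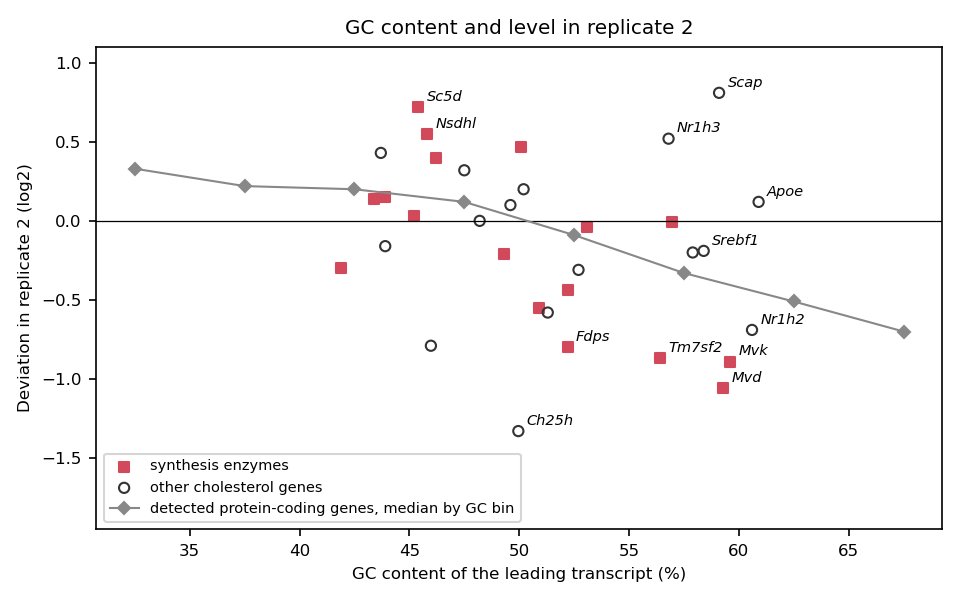
GC content of each gene's leading transcript in percent against its deviation in replicate 2 (log2), with squares for synthesis enzymes, circles for the other cholesterol genes and a line for the median of detected protein-coding genes by GC bin. The line falls from 0.33 at 30 to 35% GC to -0.70 at 65 to 70% GC, and Mvk and Mvd lie below it while Scap and Nr1h3 lie above it. Deviations are by TPM. By counts scaled to library size Scap deviated by -0.27.

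The second quantification of the same libraries gave the cholesterol genes slightly lower levels on average over the libraries. The median difference, second minus first in log2(TPM + 1), was -0.186 over the 33 genes and -0.142 over protein-coding genes. In limma on these differences 169 of 10203 genes, 1.66%, were called at an adjusted p under 0.05 and a difference of at least 1, and 0 of the 33 were, with 620 genes and 1 of the 33 at an unadjusted p under 0.05. The largest was Npc1, with 35.9, 59.6 and 67.2 TPM in the second and 61.0, 74.0 and 89.4 TPM in the first quantification (a difference of -0.49, limma adjusted p = 0.186). The mean of Apoe was 2929 TPM in the second and 3311 TPM in the first quantification. The mean of Abca1 was 36.0 TPM in the second and 41.7 TPM in the first. Both genes were lower in the second quantification in replicates 1 and 3 but not in replicate 2. In replicate 2 Apoe had 3255 TPM in the second and 3125 TPM in the first, and Abca1 had 45.6 and 45.2 TPM. In replicate 1 Apoe had 2186 and 3118 TPM, and Abca1 had 25.8 and 38.2 TPM.

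Other genes around the pathway were given as 5 lists, and 0 genes of these lists were called for spread. Of 6 genes of SREBP processing and INSIG turnover, all were at 1 TPM or more in every library, among them Erlin1 at 26.2 ± 2.68 TPM and the protease Mbtps1, the lowest, at 9.79 ± 3.66 TPM. Of 8 LXR partners and further targets, all reached 1 TPM, led by the phospholipid transfer gene Pltp at 235 ± 113 TPM and the corepressor Ncor1 at 119.6 ± 96.3 TPM, a mean set by replicate 2 (65.5, 231 and 62.5 TPM in replicates 1, 2 and 3), with the desaturase Scd1 lowest at 1.83 ± 0.646 TPM. Scavenger and lipoprotein receptors were led by Msr1 at 453 ± 28.2 TPM and Lrp1 at 112 ± 41.2 TPM, and Vldlr, the lowest of the 5, had 1, 0 and 2 counts. Lipa, the lysosomal lipase that frees cholesterol from esters, had 212 ± 57.05 TPM and Stard3 had 105 ± 48.4 TPM, while Osbp was the lowest of those 6 at 17.8 ± 2.69 TPM. Of the 4 genes that take mevalonate products elsewhere, Ggps1 had 19.3 ± 3.99 TPM, Dhdds had 17.7 ± 2.26 TPM and Fntb had 3.12 ± 0.726 TPM.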

How the data were processed

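Polyadenylated RNA of 3 libraries was measured. Per the notes deposited with the files, each has a first quantification of genes and transcripts, made from alignments to the transcriptome (RSEM column layout), and a second made against a transcript index (kallisto layout), both on mm10 with GENCODE M21. Which tools made them was not given in the sources used here. Per the file headers, the deposited tables hold expected counts, in which reads that fit several transcripts are divided among them, and TPM, a length-scaled level. The deposited interval bounds of TPM, whose coverage level is not stated, had a high bound over 1.5 times the low bound in 10 of 99 values, of Lss, Tm7sf2, Dhcr7, Scap, Insig2 and Ch25h.

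Symbols came from the transcript identifiers. Entries that name no gene (26345, holding 0.0875%, 0.0464% and 0.0636% of counts in replicates 1, 2 and 3) were left out. Expected counts were rounded, filtered with filterByExpr, scaled by TMM and fitted with an intercept in edgeR 4.0.16 (R 4.3.3). The residual dispersion of each gene was tested one-sided against the trended prior. Quantifications were compared with limma 3.58.1 on log2(TPM + 1). Pairs used log2 ratios of TPM + 0.1 and a rule of 1 sign and a mean beyond 3 SD. With a library left out, the SD was taken over the libraries that remained. Library deviations were log2(TPM + 1) minus the gene's mean, less the median deviation of detected genes in that library. P-values were adjusted over all genes by Benjamini-Hochberg. Both tests were checked on simulated data, and limma found 100 of 100 shifted genes. Promoters came from RefSeq. The members, lists, pairs and tests were chosen with earlier results of these data known. All 33 members may be named, and of each wider list the 2 highest, the lowest and any called gene. One gene that this rule names is not reported here. Alternatives were another scaling, filter, pseudocount and quantification, and leaving out each library. Counting error falls with depth, and other error is not covered by it.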

Additional observations from a re-analysis of the deposited data

How the results depend on the processing

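No paired analysis was possible because the libraries form 1 group. Of 65 summary values under other settings, 55 stayed within the spread between replicates or within 1.5 times the count, and no called result changed sign. Synthesis minus efflux moved to -3.53 with a mean of log2 values, which counts Apoe in full, and lay between -2.19 and -1.76 with each library left out. Separated pairs numbered 3 to 8 with a library left out, the 8 without replicate 2, with the SD taken over the libraries that remained. Genes called for spread numbered 64 with no filter on low counts, and 20, 7 and 11 without replicates 1, 2 and 3, with no cholesterol gene among them. Between quantifications 258 genes were called with a pseudocount of 0.1, 0 with no filter (limma, with 967 at an unadjusted p under 0.05) and 177 to 200 with a library left out. The cause of these shifts was not tested. On protein-coding transcripts alone, an alternative chosen after seeing the data, the efflux deviations changed sign, to 0.23 in replicate 1 and -0.27 in replicate 2. With counts scaled by TMM the efflux deviation in replicate 3 also changed sign, to -0.10, within the spread. Sqle over Lss fell within 3 SD in the second quantification (1.40). With 3 libraries of 1 group, small shifts of 1 library could not be detected.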
